A study of Drosophila melanogaster with 9 samples.

Results

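The genes described here build the early secretory pathway: the signal recognition particle (SRP) and its receptor, the Sec61 translocon, signal peptidase, the oligosaccharyltransferase, the COPII and COPI vesicle coats and the cargo receptors that ride in them. They were taken by symbol from a list of 44 names, ignoring letter case, and 41 of the 44 were found among the 14168 entries of the expression table. The names Spase18-21, Gtp-bp and OstStt3 matched no symbol and are not described. All 41 passed the filter on low counts, with between 332 counts (Srp19) and 22808 counts (Arf79F) in a single library.

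Polyadenylated RNA was sequenced from Drosophila melanogaster wing discs, the larval epithelial pouches that form the wing and nearby body wall of the adult, dissected from larvae of the third instar kept at 25 °C. All 9 libraries carried the en-GAL4 driver. Control discs were en-GAL4>+, with w1118 in their column names, the NAT10 knockdown was en-GAL4 > UAS-NAT10-RNAi and the double knockdown was en-GAL4 > UAS-NAT10-RNAi,Xrp1-RNAi, with 3 libraries of each genotype that the design text calls biological replicates. NAT10 is an RNA cytidine acetyltransferase, and Xrp1 is a bZIP transcription factor of the ribosomal stress response. The engrailed driver is active in the posterior compartment, while RNA was taken from whole discs, 100 to an extraction, so each library mixes cells that express the hairpins with cells that do not. No genotype with the Xrp1 hairpin alone is among the 3 genotypes. The design asks how much of the transcript change after NAT10 loss depends on Xrp1.

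Proteins destined for membranes or for secretion are recognised by SRP as they leave the ribosome, docked at the SRP receptor and threaded into the endoplasmic reticulum through the Sec61 channel. There signal peptidase removes the targeting peptide and the oligosaccharyltransferase attaches sugar chains. COPII coats carry the cargo forward to the Golgi, and COPI coats bring receptors and escaped residents back. In fly embryos and secretory glands the bZIP factor CrebA raises the transcription of many of these genes together, and Xbp1 is a bZIP factor of the unfolded protein response.

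Libraries held between 14183856 and 19949448 estimated counts. The fly NAT10 gene, listed as l(1)G0020, had normalised CPM of 100.5, 103 and 100.7 in controls, 61.4, 63.2 and 62.1 under NAT10 knockdown and 75.1, 77.1 and 71.8 under double knockdown. Xrp1 had 510.4, 526 and 525 in controls, 943, 954 and 924 under NAT10 knockdown and 425, 406 and 397 under double knockdown. Each targeted gene was lower than in any control library wherever the genotype carries its hairpin, and Xrp1 was higher under NAT10 knockdown alone. The NAT10 gene was itself higher under double than under NAT10 knockdown (log2 0.26), and these libraries did not overlap. Whether this weaker loss plays a part in the differences between the knockdowns was not tested. Normalised CPM are counts scaled to the library total and its TMM factor, and they are used to compare libraries for 1 gene. Levels of different genes are compared only by the deposited FPKM, which divides by transcript length.

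Nearly the whole set was lower under NAT10 knockdown than in control. Of 41 genes, 39 were lower and 0 higher at an adjusted p under 0.05 (quasi-likelihood test of edgeR, Benjamini-Hochberg adjustment over 8487 genes), where 29.6% of all genes tested were lower and 32.5% higher. The 2 that did not pass were Srp9, an SRP subunit, and opm, a p24 cargo receptor. All 41 estimates were below 0, and DESeq2 likewise called 0 members higher. For 39 of the 41 the 3 NAT10 knockdown libraries lay wholly below the 3 control libraries, and over all genes 65.6% had libraries that did not overlap in one direction or the other. The median log2 fold change was -0.43 over the set, against 0.03 over all genes tested, and the estimates ran from -0.94 (Sec61alpha) to -0.02 (opm). A fall of more than 0.5 on the log2 scale was seen in 10 members, and 8.17% of all genes passed with such a fall. The set took 0.899%, 0.901% and 0.910% of all counts in the control libraries and 0.638%, 0.638% and 0.644% in the libraries of the NAT10 knockdown. In bulk RNA, fewer cells of a type and less RNA per cell cannot be told apart.

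Under double knockdown the same set stood between the other 2 genotypes. Its share of counts was 0.816%, 0.812% and 0.820%, so that no library of any genotype overlapped with those of another in this share. Against control, 26 members were lower, 1 (Sar1) was higher and 14 did not pass, where 15.5% of all genes were lower and 15.7% higher. The libraries did not overlap for 25 of 41 members, against 42.4% of all genes. The median log2 fold change was -0.13, beside 0.00 over all genes, and the estimates ran from -0.40 (Tango1) to 0.13 (Sar1). Against the NAT10 knockdown, 35 members were higher and 0 lower under double knockdown, where 28.4% of all genes were higher and 28.3% lower, and the libraries did not overlap for 36 members against 63.0% of all genes. The one negative estimate was that of Srp9 (-0.05, edgeR adjusted p = 0.538), and DESeq2 also called 0 members lower. The median difference was 0.26, beside -0.01 over all genes. The 3 comparisons use the same 9 libraries pairwise, so their values are not independent of each other.

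**Figure D1:**
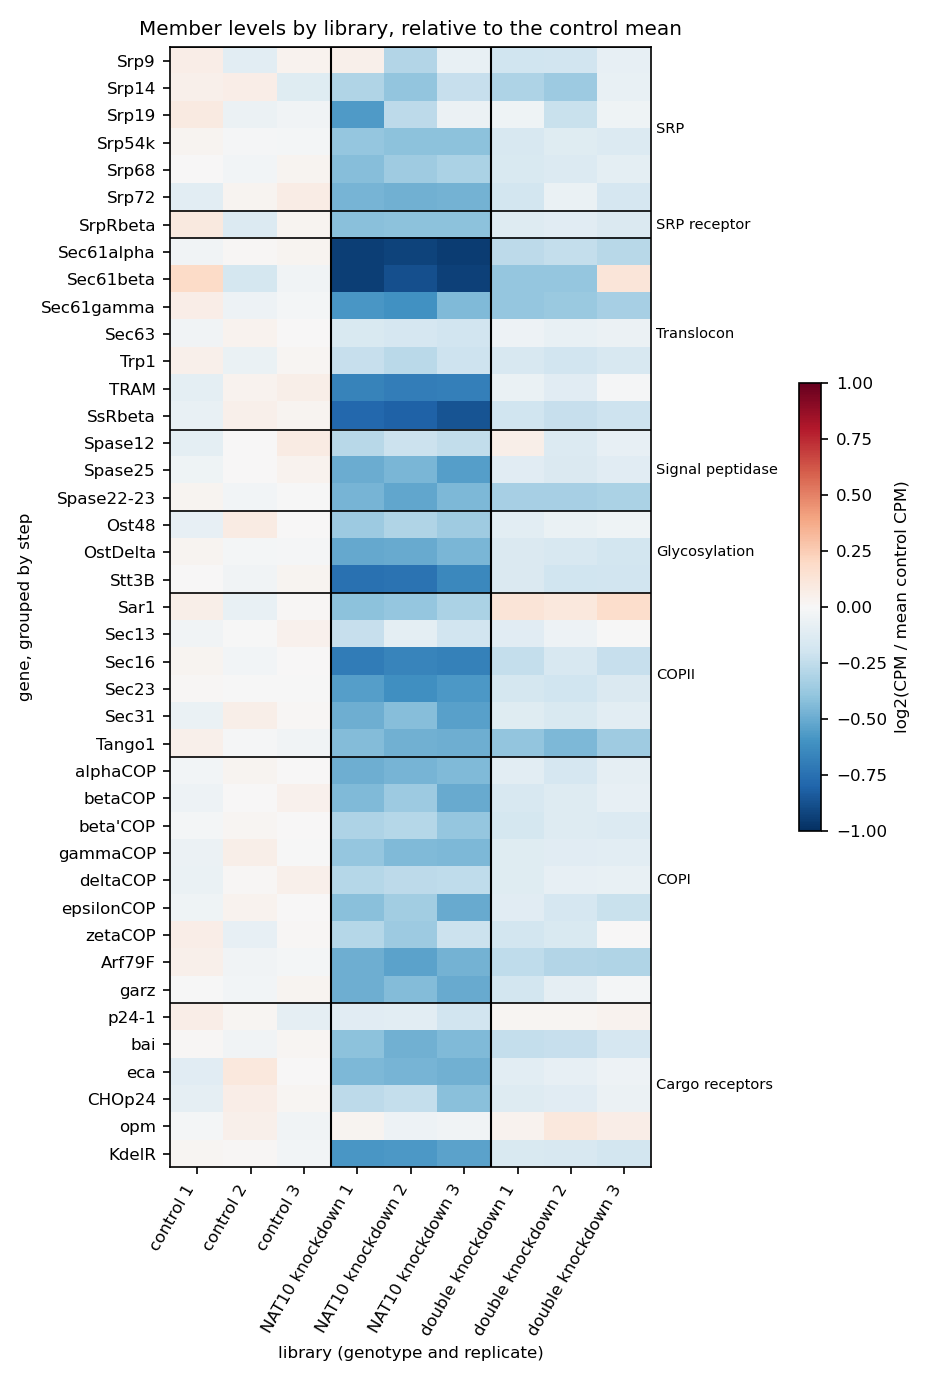
Colour shows the log2 ratio of each gene's normalised CPM to its mean in the 3 control libraries, with genes as rows grouped by step and the 9 libraries as columns. The NAT10 knockdown columns are blue for nearly every gene, deepest for Sec61alpha, Sec61beta and SsRbeta, while the double knockdown columns are pale blue and Sar1 is red there.

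Taking the calls of the 3 comparisons together, 23 members were lower in both knockdowns than in control and higher with the double than with the NAT10 knockdown. Another 11 were lower under NAT10 knockdown, higher again under double knockdown and not called between the double knockdown and control. These were Sec61beta, Sec63, TRAM, Spase12, Ost48, Sec13, zetaCOP, garz, p24-1, eca and CHOp24. For 3 members (Srp14, Trp1 and Tango1) both knockdowns were lower than control and no difference between the knockdowns passed. Srp19 was called only as lower under NAT10 knockdown, Sar1 was the member that ended above control, and Srp9 and opm were called in no comparison. How many of all genes share each of these patterns was not counted. The largest differences between the knockdowns, all with the double knockdown higher, were those of Sec61beta (log2 0.73 ± 0.17, edgeR adjusted p = 0.0109), Sec61alpha (0.68 ± 0.026), TRAM (0.62 ± 0.036), SsRbeta (0.61 ± 0.031), Stt3B (0.53 ± 0.030), Sar1 (0.51 ± 0.037) and Sec16 (0.47 ± 0.033). Apart from Sec61beta these had an adjusted p of 5.23e-12 or less. The first place of Sec61beta rested on double knockdown replicate 3, without which it was 0.55 (edgeR adjusted p = 0.00675), below Sec61alpha (0.71), SsRbeta (0.62) and TRAM (0.61) in the same fit. Some calls near the threshold changed when 1 library was left out, and several of these also changed with all libraries kept under another setting. Without control replicate 1, Sec63, Ost48, eca and CHOp24 passed as lower under double knockdown (edgeR adjusted p between 0.00336 and 0.0299), and zetaCOP did so without double knockdown replicate 3 (adjusted p = 0.0201) and Srp9 without control replicate 2 (adjusted p = 0.0414). With no filter on low counts and all 9 libraries, Ost48, zetaCOP, CHOp24 and Srp9 passed as well (edgeR adjusted p between 0.00887 and 0.0407). Between the knockdowns Srp19 and Trp1 passed without NAT10 knockdown replicate 3 (edgeR adjusted p = 0.00362 and 0.049), Srp19 passed with no filter too (adjusted p = 0.0387), and Spase12 no longer did without double knockdown replicate 1 (adjusted p = 0.1).

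The 6 SRP genes encode the protein subunits of the particle, and 5 of them fell under NAT10 knockdown with a median log2 change of -0.33. Their summed level went from 497.8 ± 5.44 CPM (SD, n = 3) in control to 389.0 ± 8.75 under NAT10 knockdown and 451 ± 8.12 under double knockdown, which is 78.1% and 90.7% of control. Srp54k, the GTPase that binds the signal peptide, had 133, 129 and 129 CPM in controls, 99.7, 98.1 and 98.3 under NAT10 knockdown and 117, 119.9 and 119 under double knockdown. The 3 genotypes did not overlap, and the change was -0.40 ± 0.035 (SE) under NAT10 knockdown (edgeR adjusted p = 1.77e-10). Srp72, which with Srp68 forms the large heterodimer of the particle, showed the largest fall of the step under NAT10 knockdown. It had 98.8, 108 and 112 CPM in controls, 77.0, 76.2 and 76.6 under NAT10 knockdown and 93.3, 102 and 94.2 under double knockdown, with a log2 change of -0.47 ± 0.046 under NAT10 knockdown (edgeR adjusted p = 1.56e-09). The double knockdown libraries of Srp72 overlapped with control, and that small decrease (-0.14, adjusted p = 0.0186) was lost without control replicate 2 or 3 or double knockdown replicate 1 or 3, with adjusted p between 0.0612 and 0.141. Srp68 fell by 0.36 and 0.13 on the log2 scale under NAT10 and double knockdown.

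Srp9 and Srp14 form the domain of the particle that pauses translation. Srp9 had 57.2, 50.7 and 56.1 CPM in controls, 56.5, 44.5 and 51.9 under NAT10 knockdown and 47.6, 48.0 and 51.6 under double knockdown, and all 3 genotypes overlapped. Its log2 change under NAT10 knockdown was -0.10 ± 0.072 (edgeR adjusted p = 0.224), and without NAT10 knockdown replicate 1, the highest of that genotype, it was -0.20 and passed (adjusted p = 0.0153). Its partner Srp14 was lower in both knockdowns (log2 -0.30 and -0.24, edgeR adjusted p = 0.0021 and 0.0207) and did not pass between them (0.06 ± 0.080, adjusted p = 0.549). The decrease of Srp14 under double knockdown was lost without control replicate 1 or 2 or double knockdown replicate 1 or 2, with adjusted p between 0.0647 and 0.117. Srp19, which helps to assemble the particle, had 29.98, 27.1 and 27.4 CPM in control and 19.0, 23.5 and 27.0 under NAT10 knockdown. The groups were separated by a narrow margin, and the fall of 0.28 (edgeR adjusted p = 0.0186) did not pass without control replicate 1 (adjusted p = 0.0773) or NAT10 knockdown replicate 1 (adjusted p = 0.0795). SrpRbeta, the membrane anchor subunit of the SRP receptor and the receptor's one gene found here, had 65.5, 55.7 and 62.2 CPM in controls, 45.6, 46.1 and 46.1 under NAT10 knockdown and 56.0, 56.5 and 55.2 under double knockdown. The NAT10 knockdown libraries lay below all others (log2 -0.42 ± 0.053, edgeR adjusted p = 1.5e-07), and the double knockdown libraries overlapped with control (-0.13, adjusted p = 0.0497). That second call was lost in all but 1 of the 9 fits without a single library, with adjusted p between 0.057 and 0.292.

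The translocon genes showed the largest falls of all steps by median. All 7 were lower under NAT10 knockdown, with a median log2 change of -0.68, and their summed level was 61.9% of control under NAT10 knockdown and 87.4% under double knockdown. In CPM the sum was 2283 ± 24 in controls, 1412 ± 3.39 under NAT10 knockdown and 1996 ± 56.3 under double knockdown. Sec61alpha, the pore-forming subunit of the channel (FBgn0086357, 2L, BDGP6.54 positions 6477182 to 6480575, minus strand), had 801, 828 and 837 CPM in controls, 428, 433 and 426 under NAT10 knockdown and 687, 698 and 680.1 under double knockdown. None of the 3 genotypes overlapped. It was 1.92-fold lower under NAT10 knockdown (log2 -0.94 ± 0.026, edgeR adjusted p = 3.46e-21), with the smallest adjusted p of the set, and 1.19-fold lower under double knockdown (log2 -0.26 ± 0.025, adjusted p = 9.29e-09). Between the knockdowns it was 1.60-fold higher under double knockdown (log2 0.68 ± 0.026, edgeR adjusted p = 4.38e-18).

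The small channel subunits Sec61beta and Sec61gamma were also lower under NAT10 knockdown. Sec61gamma had 159, 147 and 150.5 CPM in controls, 102, 99.8 and 112 under NAT10 knockdown and 116, 118 and 121 under double knockdown. Its double knockdown libraries stayed close to those of the NAT10 knockdown, with log2 changes against control of -0.54 ± 0.042 and -0.37 ± 0.041 (edgeR adjusted p = 1.54e-11 and 9.37e-08). Sec61beta had 301, 234 and 257 CPM in controls, 137, 143 and 138 under NAT10 knockdown and 202, 202 and 288 under double knockdown. Its fall under NAT10 knockdown was -0.92 ± 0.17 (edgeR adjusted p = 0.00334), and double knockdown replicate 3 stood apart from replicates 1 and 2 and lay among the control libraries. With that library the log2 change under double knockdown was -0.20 ± 0.17 (edgeR adjusted p = 0.433), and without it -0.39 (adjusted p = 0.0436).

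SsRbeta, the beta subunit of the translocon-associated protein complex, had 311, 338 and 332 CPM in controls, 189.8, 187 and 179.6 under NAT10 knockdown and 285, 278 and 284 under double knockdown. Its log2 changes against control were -0.82 ± 0.031 and -0.21 ± 0.030 (edgeR adjusted p = 5.66e-18 and 4.31e-06), with no overlap among the genotypes. TRAM, a membrane protein beside the channel, had 273, 299 and 306 CPM in controls, 184, 181 and 182 under NAT10 knockdown and 279.7, 271 and 290.3 under double knockdown. Here the double knockdown libraries overlapped with control (log2 -0.06 ± 0.035, edgeR adjusted p = 0.207), and the NAT10 knockdown lay below both (-0.68 ± 0.036, adjusted p = 1.58e-13). Without control replicate 1, the lowest of the 3, the difference between double knockdown and control was -0.11 and passed (adjusted p = 0.0036).

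Sec63 and Trp1, the fly Sec62, form the accessory unit that serves post-translational translocation, and they had the smallest changes of this step under NAT10 knockdown. Sec63 had 250.3, 262 and 257 CPM in controls, 231, 228 and 225 under NAT10 knockdown and 248, 243 and 247 under double knockdown, a fall of 0.17 ± 0.027 on the log2 scale under NAT10 knockdown (edgeR adjusted p = 5.82e-06). Trp1 had 174, 160.3 and 170.2 CPM in controls, 143, 139.7 and 146 under NAT10 knockdown and 151, 147 and 150.2 under double knockdown. Both knockdowns lay below control for Trp1 (log2 -0.24 and -0.17, edgeR adjusted p = 1.73e-06 and 0.000325), and the 0.06 between them did not pass (adjusted p = 0.119). An antisense RNA on the other strand covers 60.7% of the exon bases of Sec63, and whether the counting used strand was not stated in the sources used here.

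The ratio of Sec61alpha to Sec63 within a library shows the unequal change directly. The log2 ratio of their CPM lay between 1.66 and 1.70 in controls, between 0.89 and 0.93 under NAT10 knockdown and between 1.46 and 1.52 under double knockdown. No genotype overlapped with another. For 6 gene pairs such ratios were compared between the genotypes, 18 tests in all, and the pairs were chosen after their values had been seen, so the ratios are a description. With 3 libraries against 3 the two-sided exact permutation test cannot go below p = 0.1, which is the value for each of the 3 Sec61alpha to Sec63 comparisons (adjusted over the 18 tests, 0.129).

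Signal peptidase is a small complex, and 3 of its subunits were measured. Their summed level was 72.6% of control under NAT10 knockdown and 85.6% under double knockdown. Spase25 had 128, 132 and 135 CPM in controls, 93.3, 95.7 and 89.7 under NAT10 knockdown and 122, 119 and 122 under double knockdown. Its log2 change was -0.50 ± 0.038 under NAT10 knockdown (edgeR adjusted p = 9.04e-12), and the smaller fall of 0.12 under double knockdown did not pass without control replicate 3 (adjusted p = 0.0663). Spase22-23 had 218, 210.4 and 214 CPM in controls, 155, 149.6 and 157 under NAT10 knockdown and 170.5, 170.0 and 172 under double knockdown. Its double knockdown libraries lay nearer to the NAT10 knockdown than to control. The log2 changes against control were -0.33 ± 0.030 (edgeR adjusted p = 3.05e-09) and -0.48 ± 0.031 (adjusted p = 3.47e-13) under double and NAT10 knockdown. Other genes share 30.6% of the exon bases of Spase22-23, with 14.3% shared by Acp95EF on the other strand. Spase12 fell by 0.24 under NAT10 knockdown (edgeR adjusted p = 0.00213), but all of its exon bases lie opposite CG2006, so its level is uncertain.

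All 3 oligosaccharyltransferase genes fell under NAT10 knockdown, to a summed 69.7% of control, and stood at 90.4% under double knockdown. Stt3B, a catalytic subunit, had 413, 402 and 420.3 CPM in controls, 246, 247 and 264 under NAT10 knockdown and 373, 358 and 362 under double knockdown. It was 1.63-fold lower under NAT10 knockdown (log2 -0.71 ± 0.030, edgeR adjusted p = 4.48e-17) and lower by 0.18 ± 0.029 under double knockdown (adjusted p = 2.92e-05), with no overlap among genotypes. OstDelta had 511, 495 and 498 CPM in controls, 351, 354 and 366 under NAT10 knockdown and 454, 449 and 440.3 under double knockdown. This subunit followed the same order without overlap, with changes of -0.49 ± 0.026 and -0.16 ± 0.026 against control (edgeR adjusted p = 8.34e-15 and 1.98e-05). Ost48 fell less, by 0.34 ± 0.034 under NAT10 knockdown (edgeR adjusted p = 1.01e-08), and its double knockdown libraries, at 272, 281 and 285 CPM, overlapped with the control libraries at 276, 310.3 and 294.

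**Figure D2:**
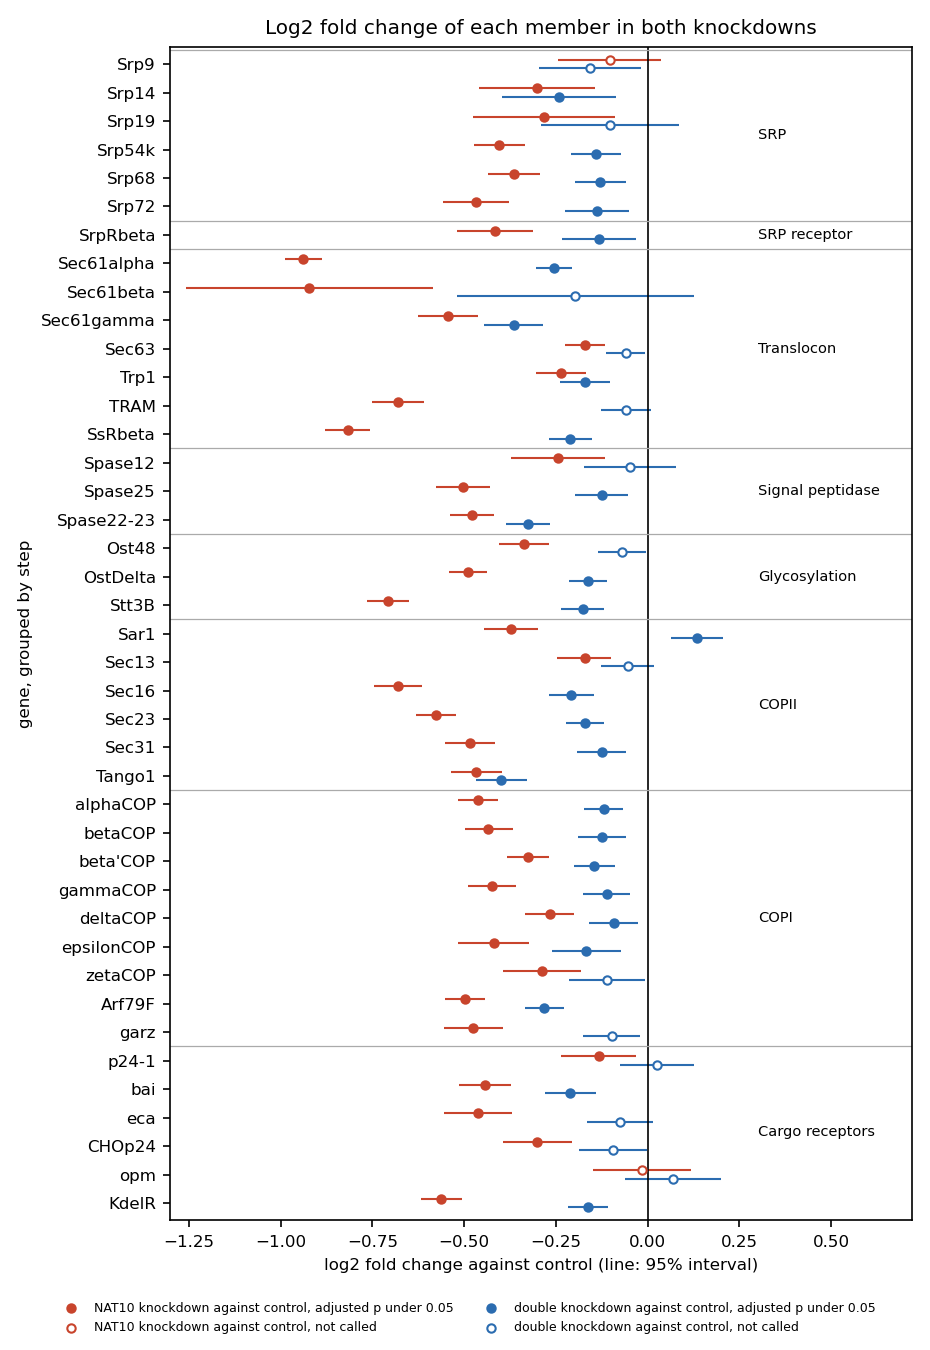
Points show the log2 fold change of each member against control under NAT10 knockdown (red) and the double knockdown (blue), with lines for the 95% interval and filled points for an adjusted p under 0.05. Red points lie left of blue points for all members except Srp9, and Sar1 has the one filled point right of 0.

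The 6 COPII genes were all lower under NAT10 knockdown (median log2 change -0.48), and they split under double knockdown. Sec16, the scaffold of endoplasmic reticulum exit sites, had 206, 197 and 202 CPM in controls, 124, 127 and 126 under NAT10 knockdown and 171, 180.5 and 172 under double knockdown. Sec23, the inner coat subunit that acts as the GTPase activator of Sar1, had 298, 296 and 296 CPM in controls, 203, 194 and 199.6 under NAT10 knockdown and 263, 259 and 269 under double knockdown. For both genes the 3 genotypes were separate, with falls under NAT10 knockdown of 0.68 ± 0.033 and 0.58 ± 0.027 on the log2 scale (edgeR adjusted p = 7.5e-16 and 4.96e-16) and under double knockdown of 0.21 and 0.17 (adjusted p = 1.06e-05 and 1.36e-05). Sec31 of the outer coat changed by -0.48 and -0.12, and its partner Sec13 by -0.17 ± 0.038 (edgeR adjusted p = 0.000281) and -0.05 (adjusted p = 0.282). Sec13 is also a nuclear pore protein.

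Sar1 and Tango1 lay at opposite ends of the set under double knockdown. Sar1, the GTPase that starts the coat (FBgn0038947, 3R, 22356685 to 22360711, plus strand), had 175, 159.6 and 169 CPM in controls, 126, 128 and 135 under NAT10 knockdown and 183, 181 and 189.6 under double knockdown. Its NAT10 knockdown libraries were lowest (log2 -0.37 ± 0.037, edgeR adjusted p = 2.42e-09) and its double knockdown libraries highest, 0.13 ± 0.036 above control (adjusted p = 0.00524) and 0.51 ± 0.037 above the NAT10 knockdown (adjusted p = 5.23e-12). Tango1, a receptor that recruits bulky cargo such as collagen at exit sites (FBgn0286898, 2L, 6649388 to 6654574, plus strand), had 185, 176 and 174 CPM in controls, 132, 128 and 127 under NAT10 knockdown and 136, 131 and 139.5 under double knockdown. The knockdowns overlapped with each other and lay below control, with log2 changes of -0.47 ± 0.036 and -0.40 ± 0.035 (edgeR adjusted p = 1.28e-11 and 1.2e-09). The 0.07 ± 0.036 between them did not pass (adjusted p = 0.112), with a 95% interval from -0.003 to 0.138, although without NAT10 knockdown replicate 1 it was 0.10 and passed (adjusted p = 0.0378). Within libraries the log2 ratio of Tango1 to Sec31 averaged -0.27 in controls, -0.25 under NAT10 knockdown and -0.55 under double knockdown, where all 3 libraries lay below those of the other genotypes. The ratio of Sar1 to Sec23 averaged -0.82, -0.62 and -0.51 in the same order, without overlap.

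**Figure D3:**
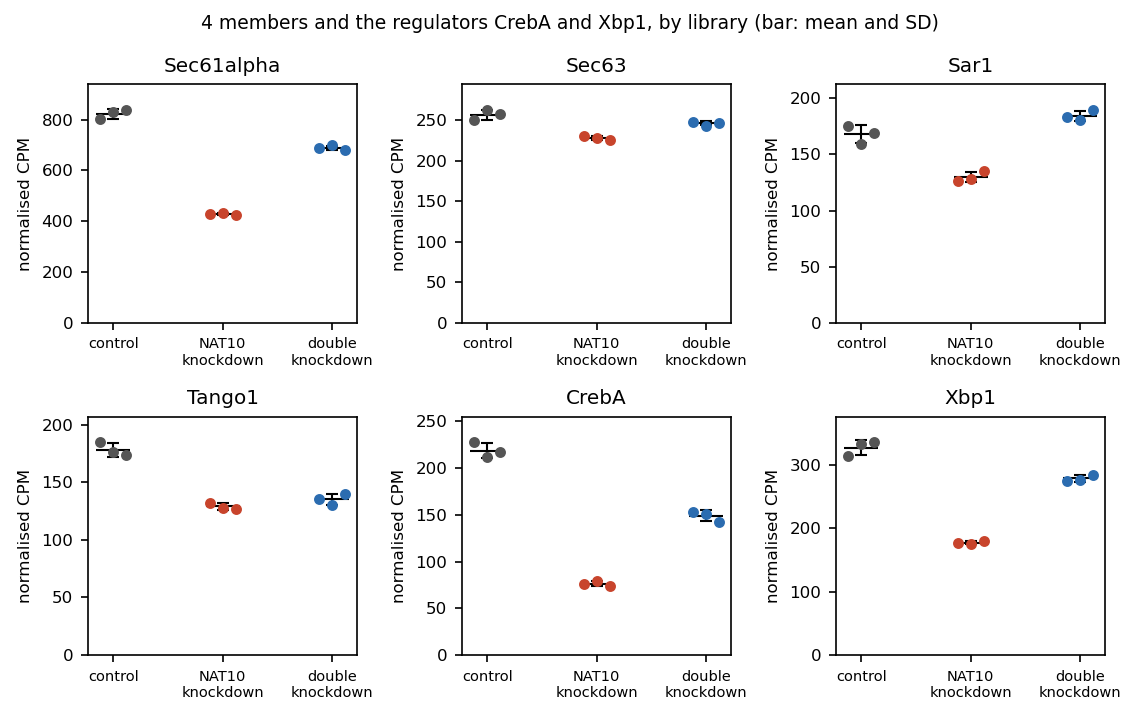
Points are the normalised CPM of single libraries for Sec61alpha, Sec63, Sar1, Tango1, CrebA and Xbp1, with a line for the mean and bars for the SD of 3 libraries, on axes that start at 0. The double knockdown lies between the other genotypes for Sec61alpha, CrebA and Xbp1, above control for Sar1 and beside the NAT10 knockdown for Tango1.

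The COPI genes had the narrowest range of change under NAT10 knockdown among the steps with more than 1 gene. All 9 fell under NAT10 knockdown, by 0.27 (deltaCOP) to 0.50 (Arf79F) on the log2 scale, and all 9 were higher with the double than with the NAT10 knockdown. Their summed level was 2777 ± 11.5 CPM in controls, 2047 ± 5.81 under NAT10 knockdown and 2433 ± 16.5 under double knockdown, or 73.7% and 87.6% of control. Arf79F, the Arf1 GTPase that recruits the coat, had 1271, 1198 and 1214 CPM in controls, 877, 847 and 886 under NAT10 knockdown and 1029, 1002 and 999 under double knockdown. Its genotypes did not overlap, and it changed by -0.50 ± 0.027 and -0.28 ± 0.027 against control (edgeR adjusted p = 1.25e-14 and 5.97e-09). The coatomer subunit alphaCOP had 320.3, 334 and 327 CPM in controls, 234, 237 and 242 under NAT10 knockdown and 304, 292 and 307 under double knockdown, again without overlap, with a fall of 0.46 ± 0.028 under NAT10 knockdown (edgeR adjusted p = 9.59e-14). At the other end, deltaCOP had 160.3, 169 and 173 CPM in controls, 138, 139.6 and 140.5 under NAT10 knockdown and 154, 158 and 159 under double knockdown. Its fall of 0.27 ± 0.034 under NAT10 knockdown passed (edgeR adjusted p = 1.92e-07). Its fall of 0.09 under double knockdown (adjusted p = 0.037) was lost in 9 of the alternative fits, with adjusted p between 0.0503 and 0.198, and under both stricter thresholds.

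The remaining coatomer subunits betaCOP, beta'COP, gammaCOP, epsilonCOP and zetaCOP changed by -0.43, -0.33, -0.42, -0.42 and -0.29 under NAT10 knockdown, and 4 of these 5 were also called lower under double knockdown, zetaCOP being the exception. The decrease of gammaCOP there was lost without control replicate 2 (adjusted p = 0.0702) and that of epsilonCOP without double knockdown replicate 3 (adjusted p = 0.0549). The Arf1 exchange factor garz had 132, 129.8 and 136 CPM in controls, 94.5, 98.2 and 93.6 under NAT10 knockdown and 117, 124 and 130.5 under double knockdown. The highest double knockdown library of garz reached the control range, and the difference did not pass (log2 -0.10 ± 0.040, edgeR adjusted p = 0.063). It passed without that library, replicate 3 (-0.14, adjusted p = 0.0151), and with all libraries when no filter was used (-0.11, adjusted p = 0.0201).

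Among the cargo receptors 5 of 6 fell under NAT10 knockdown, and 2 of 6 were lower under double knockdown. KdelR, which returns escaped chaperones to the endoplasmic reticulum, had 258, 256 and 249.7 CPM in controls, 170.1, 172 and 176 under NAT10 knockdown and 229.9, 229 and 224 under double knockdown. The genotypes were separate, with changes of -0.56 ± 0.029 and -0.16 ± 0.028 against control (edgeR adjusted p = 2.24e-15 and 4.72e-05). The other 5 are members of the p24 family, coat-binding receptors that shuttle between the endoplasmic reticulum and the Golgi, and they ranged widely. Under NAT10 knockdown eca changed by -0.46, bai by -0.44, CHOp24 by -0.30, p24-1 by -0.13 and opm by -0.02. The gene bai had 149.6, 145 and 151 CPM in controls, 112, 106 and 109 under NAT10 knockdown and 126, 127 and 132 under double knockdown, and was the one p24 gene called lower under double knockdown (-0.21, edgeR adjusted p = 3.81e-05). The fall of p24-1 (edgeR adjusted p = 0.0276) was lost without control replicate 1 or 2 or NAT10 knockdown replicate 3, with adjusted p between 0.0689 and 0.142. The gene opm had 24.2, 25.4 and 23.8 CPM in controls and 24.9, 23.7 and 23.9 under NAT10 knockdown. Under double knockdown it had 25.0, 26.4 and 25.6 CPM. Both knockdowns overlapped with control (edgeR adjusted p = 0.858 under NAT10 knockdown, with a 95% interval of the log2 change from -0.15 to 0.12). Between the knockdowns the libraries were separated by a narrow margin, and the difference did not pass (log2 0.09, edgeR adjusted p = 0.281).

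**Figure D4:**
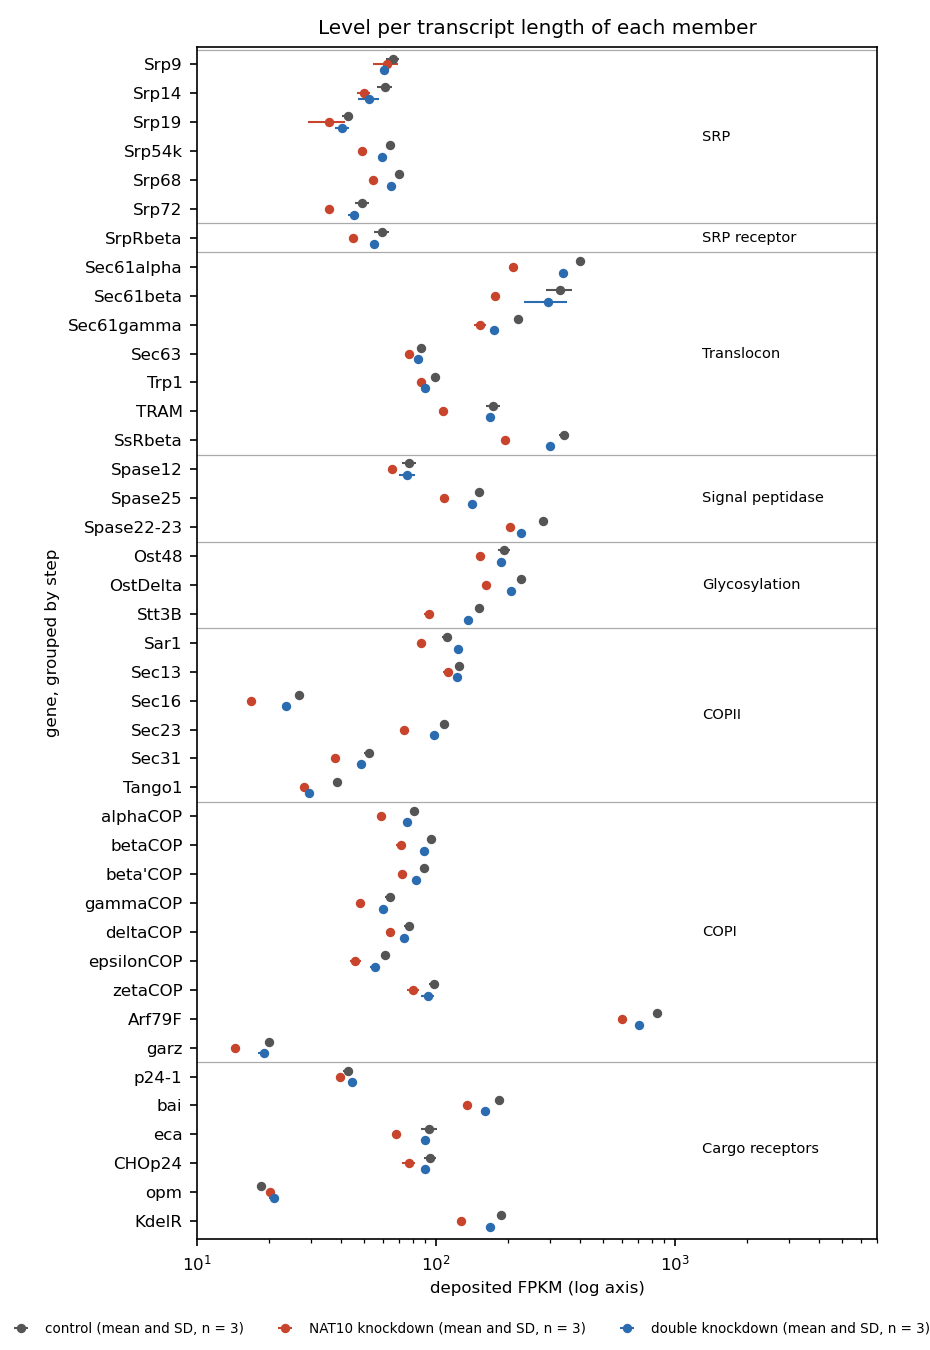
Points are the mean deposited FPKM of each member in the 3 genotypes on a log axis, with bars for the SD of 3 libraries. Arf79F, Sec61alpha, SsRbeta and Sec61beta have the highest control levels and opm, garz and Sec16 the lowest, and the 7 coatomer subunits lie close together.

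On the FPKM scale the control level of the members spanned a 45.4-fold range, from opm at 18.5 to Arf79F at 841. The 7 coatomer subunits, which assemble in equal numbers, lay within 61.1 (epsilonCOP) to 97.7 (zetaCOP), a 1.60-fold range. The 6 SRP genes lay within a 1.63-fold range, and the 7 translocon genes within a 4.63-fold range from Sec63 at 86.5 to Sec61alpha at 401. Across the 41 genes the log2 change under NAT10 knockdown had a Spearman rho of -0.46 with control FPKM, and over all 8487 genes tested rho was -0.29, where all points share the same libraries and the control values enter both measures. Members with higher control levels tended to have more negative log2 changes, as did genes at large. The part of the shared control values in either rho was not tested.

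**Figure D5:**
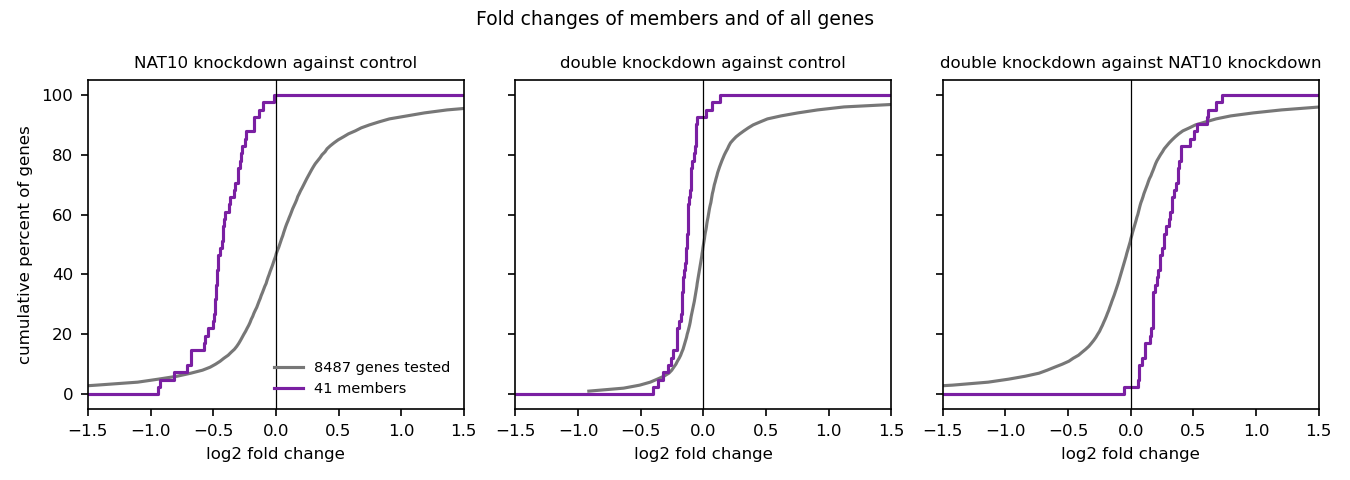
Curves give the cumulative percent of genes against their log2 fold change in the 3 comparisons, in grey for the 8487 genes tested and in purple for the 41 members. The purple curve lies left of the grey one near 0 in both comparisons with control and right of it between the knockdowns.

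The position of the set among all genes differed between the comparisons. Under NAT10 knockdown 36 of 41 members had log2 changes under the lower quartile of all genes (-0.20) and 13 were under the lower decile (-0.48). Under double knockdown against control 29 members lay under the lower quartile (-0.10), 6 under the lower decile (-0.22) and 1 above the upper quartile (0.12). Between the knockdowns 28 members lay above the upper quartile (0.18). The members are spread over the genome, with 6 on 2L, 4 on 2R, 10 on 3L, 11 on 3R and 10 on X, and the median change under NAT10 knockdown ran from -0.49 (2R) to -0.38 (3L) among these arms. Sec61alpha and epsilonCOP lie 8514 bases apart, Srp14 and Srp72 7946, and Srp19 and Sec63 12526, so these pairs are near neighbours.

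CrebA and Xbp1 followed the order of the set. CrebA (FBgn0004396, 3L, 15535395 to 15553214, plus strand) had 228, 211 and 217 CPM in controls, 75.5, 79.1 and 73.6 under NAT10 knockdown and 153, 151 and 142 under double knockdown. It was 2.87-fold lower under NAT10 knockdown (log2 -1.52 ± 0.040, edgeR adjusted p = 1.07e-21), lower by 0.55 ± 0.037 under double knockdown (adjusted p = 4.67e-12), and 0.97 ± 0.040 higher with the double than with the NAT10 knockdown (adjusted p = 3.41e-17). Its fall was larger than that of any of the 41 members, and the genotypes did not overlap. Xbp1 had 314, 333 and 336 CPM in controls, 177, 174 and 179 under NAT10 knockdown and 275, 276 and 284 under double knockdown, with changes of -0.89 ± 0.030 and -0.23 ± 0.029 (edgeR adjusted p = 2.35e-19 and 3.99e-07). Binding of either factor was not measured.

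Another list held 62 genes of secretion, covering vesicle tethers and SNAREs, Golgi proteins, chaperones of the endoplasmic reticulum, sugar-chain assembly and the exocyst, of which 60 were found and tested. Under NAT10 knockdown 35 were lower, 6 higher and 19 not called, with a median of -0.21, where 29.6% of all genes were lower and 32.5% higher. The largest falls were those of the chaperones and folding enzymes Pdi (-1.05 ± 0.024), Hsc70-3, the fly BiP (-1.03 ± 0.024), Gp93 (-0.82) and Calr (-0.74), with edgeR adjusted p of 1.3e-17 or less. Those that rose most were xit (0.45, edgeR adjusted p = 4.5e-05), Alg10 (0.33), gny (0.29) and the Golgi tether Golgin84 (0.21). The first 3 of these encode glucosyltransferases that finish the lipid-linked sugar chain before the oligosaccharyltransferase uses it. Alg10 had 49.4, 53.7 and 53.5 CPM in control and 66.5, 66.1 and 63.4 under NAT10 knockdown, so the groups did not overlap while Stt3B, Ost48 and OstDelta were all lower in the same libraries.

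Under double knockdown against control 25 of the 60 were lower, 5 higher and 30 not called (median -0.12). Over all genes 15.5% were lower and 15.7% higher. The falls were led by Hsc70-3 (-0.33), the SNARE Gos28 (-0.31) and Pdi (-0.30). Against the NAT10 knockdown 28 were higher, 6 lower and 26 not called (median 0.13), where 28.4% of all genes were higher and 28.3% lower. The largest difference was that of l(1)G0320, which encodes the alpha subunit of the translocon-associated protein complex. This partner of SsRbeta had 575, 611 and 614 CPM in controls, 372, 377 and 369 under NAT10 knockdown and 676, 688 and 684 under double knockdown. It was 0.87 ± 0.028 higher with the double than with the NAT10 knockdown (edgeR adjusted p = 8.4e-20) and 0.19 ± 0.027 above control (adjusted p = 4.75e-06), whereas SsRbeta stayed 0.21 below control. The exocyst genes Sec5 and Sec10 were among the 6 that were lower with the double than with the NAT10 knockdown (-0.19 and -0.20, edgeR adjusted p = 0.00498 and 0.000807).

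Markers of the cell types in and around the disc moved with the same genotypes. Against control, 29.6% of all genes were lower and 32.5% higher under NAT10 knockdown. Under double knockdown 15.5% were lower and 15.7% higher. Of 11 wing disc epithelium markers 9 were lower and 1 higher under NAT10 knockdown, and their summed level was 4230 to 4430 CPM in controls, 3590 to 3680 under NAT10 knockdown and 4210 to 4290 under double knockdown. The driver gene en, one of these markers, had 103.6, 98.5 and 101 CPM in controls, 61.9, 60.8 and 62.1 under NAT10 knockdown and 71.3, 70.9 and 73.1 under double knockdown. Fat body, an organ with heavy secretion, had 9 markers, of which 7 rose and 1 fell under NAT10 knockdown and 8 rose under double knockdown. Their sum was 79.4 to 87.3 CPM in controls, 152 to 163 under NAT10 knockdown and 1400 to 1450 under double knockdown. FASN1 alone averaged 67.8 CPM in controls, 89.3 under NAT10 knockdown and 67.9 under double knockdown. The 7 salivary gland markers summed to at most 1.52 CPM in any library and none passed the filter on low counts, each being at 0 counts in at least 1 library. Hemocyte markers summed to 25.7 to 27.6 CPM in controls, 15 to 17.4 under NAT10 knockdown and 15.5 to 17.6 under double knockdown, with 4 of 8 tested lower and 0 higher under NAT10 knockdown. The largest falls in mean CPM there were those of PPO2 (6.55 to 1.32) and PPO1 (4.53 to 1.05). Pxn averaged 5.92 CPM in controls and 5.39 under NAT10 knockdown, and Hml averaged 4.42 and 5.55. Muscle markers summed to 171 to 182 CPM in controls, 223 to 229 under NAT10 knockdown and 179 to 196 under double knockdown. Of the 8, 6 were lower under NAT10 knockdown, and 2 were higher, sls (mean 99.7 to 182 CPM) and Mlc2 (14.7 to 27.0). Tracheal markers summed to 792 to 816, 1030 to 1100 and 878 to 918 CPM in the same order. Of these 4, serp (mean 243 to 311 CPM) and verm (465 to 685) were higher under NAT10 knockdown. The other 2, trh (84.2 to 57.8) and btl (10.9 to 7.66), were lower. The part of these shifts in the changes of the secretory genes was not tested.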

How the data were processed

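Estimated counts and FPKM per gene and library were deposited by the authors in 1 table, and the submitters' processing notes name RSEM along with HISAT2 2.1.0, StringTie 1.3.1 and fastp 0.18.0, but not the step each served. The genome build and the use of strand in counting are not given in the sources used here. Positions come from the BDGP6.54 annotation, release 115 (1-based), matched by FlyBase identifier for 41 of 41 members, of which 14 share exon bases with another gene and 3 share at least 20%. Values that were not whole (8.19% to 9.11% per library) were rounded. A floor of 3 counts is 0.150 to 0.212 CPM per library and covers counting error only.

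Counts of all 9 libraries, grouped by the genotype in the labels, were fitted using edgeR 4.0.16 under R 4.3.3 with TMM, filterByExpr and the robust quasi-likelihood test, adjusted by Benjamini-Hochberg over 8487 genes and called at an adjusted p under 0.05. SE is the size of the coefficient over the root of F. The common biological coefficient of variation was 3.61%. The p-values measure the spread between extractions of pooled discs. The steps were tested on simulated data.

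The members, lists and tests were chosen with earlier results of these data known. Every member is accounted for, and fuller statistics are given for the 10 members with the smallest adjusted p in a comparison, for the largest and smallest change of a step, and for members whose call 1 library decides. Of the other secretion genes, those with the largest called changes in a comparison are named. The listed genes Golgin97 and Ugt matched no symbol. Alternatives were the DESeq2 1.42.0 Wald test, RLE size factors, library totals only, no filter (11885 genes), 5 CPM in 3 libraries (7191 genes), the 2 genotypes alone, a replicate block, omission of each library, a 1.5-fold threshold and an adjusted p under 0.01. A planned search of promoters for motifs was not run, since no promoter sequence was used here. The authors' own comparison tables were not used here. Tables and figures used Python 3.11.15 with matplotlib 3.10.9, pandas 2.3.3 and numpy 2.4.6.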

Additional observations from a re-analysis of the deposited data

How the results depend on the processing

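The count of members lower in the NAT10 knockdown was 37 to 39 with single libraries left out and 37 at an adjusted p under 0.01, and 0 were higher under every alternative. With a 1.5-fold threshold the members lower were 6, among 595 lower and 965 higher genes in all. The members' median (-0.434) was -0.45 with DESeq2, RLE, no filter or the 2 genotypes alone, -0.44 with the 5 CPM filter, -0.423 with totals only, and -0.475 to -0.425 without single libraries. In the double knockdown against control 22 to 29 members were lower without single libraries, 21 at an adjusted p under 0.01 and 31 with no filter. At 1.5-fold 0 members were lower and 0 higher, among 123 lower and 466 higher genes, and the median of -0.133 became -0.108 with totals only. Totals only also moved the split of all genes there from 1335 higher and 1318 lower to 1613 and 1044. Between the knockdowns 34 to 37 members were higher without single libraries and 4 at 1.5-fold, among 697 higher and 726 lower genes, and the median ran from 0.256 to 0.303.

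Estimates that changed sign were those of opm in the NAT10 knockdown (0.01 without control replicate 2, range -0.056 to 0.01 over the libraries left out), p24-1 in the double knockdown (-0.02 without control replicate 3, range -0.02 to 0.061), and, between the knockdowns, Srp9 (0.042 without NAT10 knockdown replicate 1, range -0.126 to 0.042) and Srp14 (-0.014 without double knockdown replicate 3, range -0.014 to 0.117). None of the 4 was called before or after, and the cause was not tested. Single-member results were compared under the alternatives other than the 1.5-fold and adjusted p under 0.01 thresholds. Of these 1968 results, 1901 kept call and direction, 40 lost the call and 23 gained it. Most of the lost calls (34) were small decreases in the double knockdown.

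Same-numbered libraries of different genotypes did not deviate together (correlation of deviations -0.028 to 0.077 over 9 pairs). No shared effect of the replicate number was therefore visible. The labels state no pairing, and the correlations cannot show whether libraries were prepared as matched sets. With a replicate block 39, 26 and 35 members were called lower, lower and higher in the 3 comparisons. The counts equalled those without it, but under double knockdown SrpRbeta was lost (adjusted p = 0.0554) and Srp9 gained (adjusted p = 0.0361).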
